A study of Mus musculus with 2 samples.

Results

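The genes described here build and shape connective tissue and smooth muscle in the intestinal wall. They were chosen by name: every collagen chain in the table, plus 21 genes for proteoglycans, matrix glycoproteins, elastic fibres, laminins, contractile proteins and platelet-derived growth factor (PDGF) receptors. This gave 56 of the 17024 genes listed, of which 35 are collagens. RNA was sequenced from sorted cells carrying GFP, taken from the lamina propria of the small intestine in C57BL/6 mice that were 6 to 8 weeks old. The ILC3 library came from group 3 innate lymphoid cells of IL23R_GFP knock-in mice, and the Th17 library from T cells of IL17A_IRES_GFP knock-in mice. Each group held 1 library, so cell type cannot be told apart from mouse line and reporter, and no difference given here has a replicate check. How many mice went into each library is unknown here.

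Fibroblasts, smooth muscle cells and pericytes make the extracellular matrix of the lamina propria. Fibrillar collagens give it tensile strength, type IV collagen and laminins form the basement membranes under epithelium and around vessels, and small proteoglycans such as decorin coat the fibrils. Lymphocytes move through this matrix and bind it through integrins, but they are not known as its main source. The question the data can answer is how the transcripts of these genes compare between the 2 sorted libraries.

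Collagen chains share a coding pattern that the choice by name did not use. A collagen helix is a run of amino acid triplets that each open with glycine, and in fibrillar collagen genes the helix is spread over many small exons that begin with a glycine codon. The lines here give the first 54-base exon built wholly of such triplets in the principal transcript of 4 fibrillar chains, from the GENCODE M21 transcripts (GRCm38), coding strand. They are shown because these chains are 4 of the 5 fibrillar collagens with a large difference between the libraries. Capitals mark the glycine codon at the start of each of the 6 triplets.
Col3a1: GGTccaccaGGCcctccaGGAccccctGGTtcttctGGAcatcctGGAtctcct
Col1a1: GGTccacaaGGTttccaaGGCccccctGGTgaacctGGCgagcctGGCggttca
Col1a2: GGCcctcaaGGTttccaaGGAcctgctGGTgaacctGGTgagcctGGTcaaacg
Col5a2: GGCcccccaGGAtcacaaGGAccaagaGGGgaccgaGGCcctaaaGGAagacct
The Col3a1 exon is exon 6, at chr1:45325360-45325413 on the plus strand, and the Col1a1 exon is exon 8, at chr11:94939904-94939957 on the plus strand. The Col1a2 exon is exon 8, at chr6:4515481-4515534 on the plus strand, and the Col5a2 exon is exon 6, at chr1:45434892-45434945 on the minus strand.

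Exons of 54 bases made up 24 of the 49 wholly coding exons of Col3a1, 21 of 49 in Col1a1, 24 of 50 in Col1a2 and 24 of 52 in Col5a2. The longest unbroken run of glycine-led triplets was 344 in Col3a1, 338 in Col1a1, 339 in Col1a2 and 339 in Col5a2. The basement membrane chain Col4a1 had 2 exons of 54 bases among 50, and its longest run was 40 triplets. The bead-forming chain Col6a1 had 3 among 33 and a run of 87. Of the 35 collagens, 12 had at least 10 exons of 54 bases. Chains of both architectures were among those with far more reads in the ILC3 library.

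In 27 of the 56 genes a moderate level in the ILC3 library stood against few or no reads in the Th17 library. A difference was called large where it reached 4-fold on the log2(normalized count + 1) scale and the higher of the libraries held 100 or more normalized counts. By that rule 27 of the 56 were higher in ILC3, against 5.14% of all 17024 genes, and 1 was higher in Th17, against 3.92% of all genes. Centring the libraries on genes of constitutive families (mitochondrial ribosome, proteasome and respiratory complex I) gave 28 and 0 of the 56, and it changed the split of large differences over all genes to 1185 higher in ILC3 and 469 in Th17, against 875 and 668. With no limit on size, 49 of the 56 had the higher value in ILC3 (45.5% of all genes) and 7 in Th17 (54.5% of all genes). The median log2(ILC3/Th17) was 4.54 over the 48 genes with a mean of at least 10 normalized counts, and 4.16 over all 56, while over all genes with that mean it was -0.017. The 27 genes had between 107 and 2159 normalized counts in ILC3, with a median of 423, and at most 45.9 in Th17, with a median of 5.88. Of the 27, 14 had 5 or fewer reads in Th17 and 3 had none.

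Col3a1, the highest of the 56 in ILC3, ranked at place 2016 among all genes of that library by normalized count. Summed over the 56 genes, the normalized counts were 20176 in ILC3 and 10778 in Th17, a ratio of 1.87 (exact 95% interval 1.83 to 1.92, counting error only). The Th17 sum was mostly Lamc1, which held 87.6% of it, and without Lamc1 the sums were 18022 and 1333, a ratio of 13.5 (12.7 to 14.4). In bulk libraries, fewer cells of a type and less RNA per cell cannot be told apart.

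**Figure D1:**
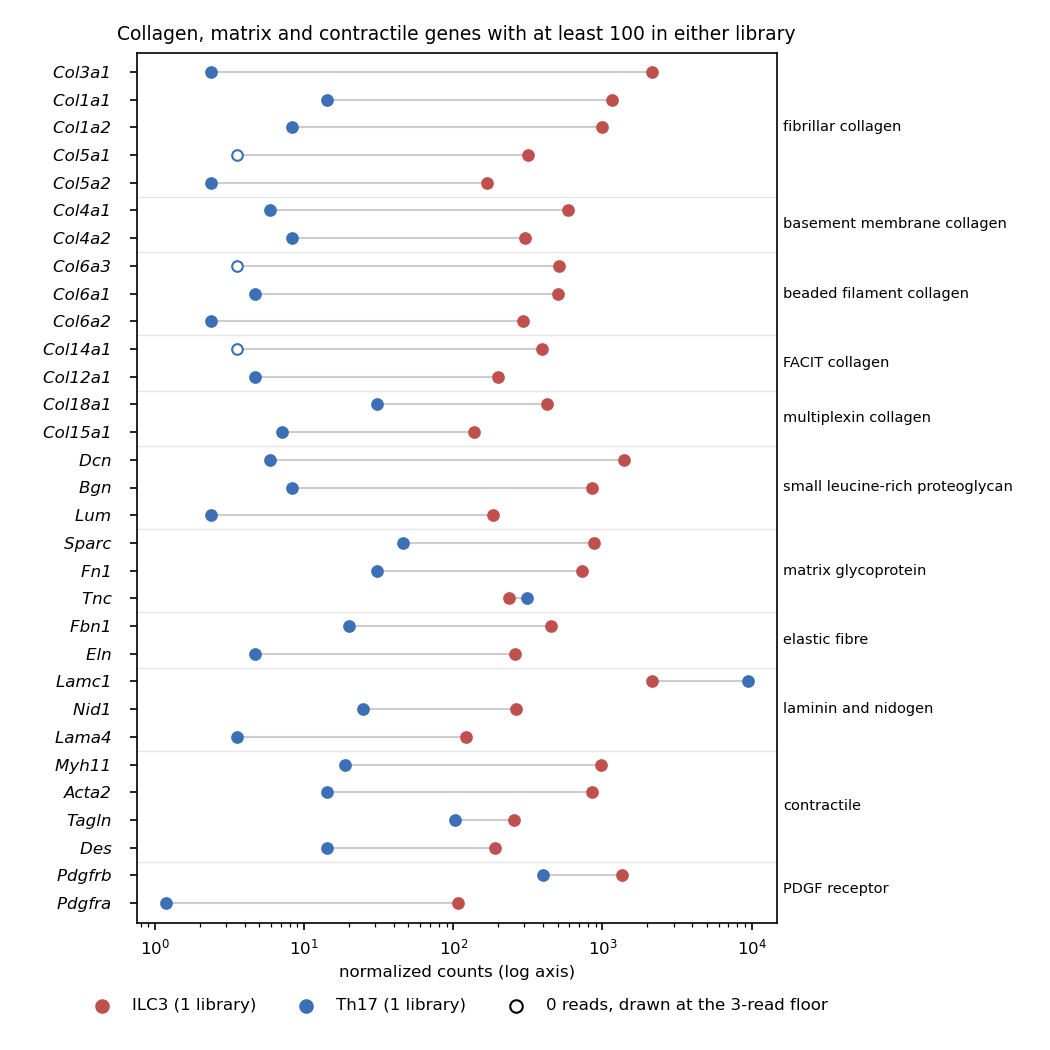
Normalized counts (log axis) of the 31 stroma genes that reached 100 in either library, with ILC3 in red and Th17 in blue, grouped by role; open circles mark 0 reads and stand at the floor of 3 reads. In 27 genes the ILC3 point lies far to the right, Lamc1 lies the other way, and Pdgfrb, Tagln and Tnc have their points close together.

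Of the 9 fibrillar chains, 5 had a large difference, all higher in ILC3. Col3a1, the type III chain of pliable tissues, had 2159 normalized counts in ILC3, against 2.35 (2 reads) in Th17, a ratio of 918 (254 to 7585). Col1a1 and Col1a2, which assemble into type I collagen, the main fibre of connective tissue, had 1153 and 993 in ILC3, against 14.1 and 8.23 in Th17. The ILC3 to Th17 ratio was 81.7 for Col1a1 (46.6 to 158.6) and 120.7 for Col1a2 (58.4 to 301). Every interval beside a ratio is an exact 95% interval of the reads in this pair of libraries and holds no spread between animals. Such intervals excluded equal levels for 44 of the 56 genes on the ILC3 side (34.9% of all genes) and 6 on the Th17 side (37.3% of all genes). Col5a1 and Col5a2, the type V chains that start fibrils, had 318 and 168 in ILC3, while in Th17 Col5a1 was at 0 and Col5a2 at 2.35. Against a floor of 3 reads, Col5a1 was at least 90.2-fold higher in ILC3. Summed, the 9 fibrillar chains had 4835 normalized counts in ILC3, against 77.6 in Th17. Of the fibrillar chains best known from cartilage, Col11a2 did not share the gap. Col11a2 had 31.5 in ILC3 and 30.6 in Th17, a ratio of 1.03 (0.607 to 1.77). Col11a1 had 1 read in ILC3 and none in Th17, too few to compare. Col5a3, a type V chain of fewer tissues, had 11.9 in ILC3 and 1.18 in Th17.

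Per kb of transcript, the 2 type I chains were close to each other within the ILC3 library, at 194 normalized counts per kb for Col1a1 and 186 for Col1a2. The ratio of the pair was 1.05 (0.968 to 1.13). Col3a1 stood at 388 per kb, 1.996 times Col1a1 (1.87 to 2.13). In Th17 the same genes had 0.423, 2.38 and 1.54 normalized counts per kb for Col3a1, Col1a1 and Col1a2, with Col1a1 the highest of the 3 on 12 reads.

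Type IV collagen, the network of basement membranes, divided by chain. The widespread chains Col4a1 and Col4a2 had 584 and 301 normalized counts in ILC3, against 5.88 and 8.23 in Th17, ratios of 99.4 (42.4 to 307) and 36.6 (17.6 to 91.6). These neighbouring genes share 22 exon bases on opposite strands. Per kb, Col4a1 was 1.89 times Col4a2 in ILC3 (1.66 to 2.16). The 4 other chains, Col4a3 to Col4a6, which are found in fewer basement membranes such as those of the kidney, had between 13.6 and 28.1 in ILC3 and between 1.18 and 5.88 in Th17.

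Type VI collagen forms beaded filaments that link cells to the surrounding matrix. Its classical chains Col6a1, Col6a2 and Col6a3 had 501, 292 and 515 normalized counts in ILC3, against 4.70, 2.35 and 0 in Th17. The ratio was 106 for Col6a1 (41.4 to 392), 124 for Col6a2 (34.1 to 1028) and at least 146 for Col6a3. Per kb, Col6a1 was 1.65 times Col6a2 in ILC3 (1.45 to 1.90), and Col6a3 was 0.468 times Col6a1 (0.417 to 0.525). The later-described chains Col6a4 and Col6a5 stayed low, at 7.65 and 52.7 in ILC3 and 1.18 and 0 in Th17.

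Of the collagens that decorate fibrils or basement membranes, 4 had a large difference. Col14a1 and Col12a1, which bind the surface of fibrils, had 394 and 198 normalized counts in ILC3, against 0 and 4.70 in Th17, at least 112-fold and 42.1-fold (16.2 to 155.9) higher in ILC3. Col18a1, whose fragment is endostatin, had 423 in ILC3 and 30.6 in Th17 (13.8-fold, 9.32 to 21.4), and Col15a1 had 137 and 7.06 (19.4-fold, 8.72 to 53.7). Both are basement membrane collagens. Col16a1 was at 71.4 in ILC3 and 43.5 in Th17, the smallest ratio of the 6 fibril-associated chains. Col20a1, Col9a3 and Col19a1, of the same group, had 59.5, 44.2 and 10.2 in ILC3, against 10.6, 10.6 and 2.35 in Th17.

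None of the transmembrane, anchoring and short-chain collagens reached 100 normalized counts in either library, so none could be called large. Col17a1, of epithelial hemidesmosomes, had 84.2 in ILC3 and 12.9 in Th17. Col25a1, Col23a1 and Col8a1 had 20.4, 13.6 and 5.10 in ILC3, against 0, 16.5 and 1.18 in Th17. Col10a1, Col13a1 and Col7a1 of these groups and the fibrillar chain Col27a1 were listed at 0 in ILC3 and had between 10 and 23 reads in Th17. Their counting intervals excluded equal levels when each read was counted. The ILC3 library had few genes at very low counts, with 519 genes at 1 to 5 reads and 2235 at 0, against 2927 and 714 in Th17. With ILC3 reads taken in groups of 10 the intervals of all 4 included equal levels. Over the 56 genes the grouped intervals excluded equal levels for 40 on the ILC3 side (24.9% of all genes) and 1, Lamc1, on the Th17 side (24.8% of all genes).

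**Figure D2:**
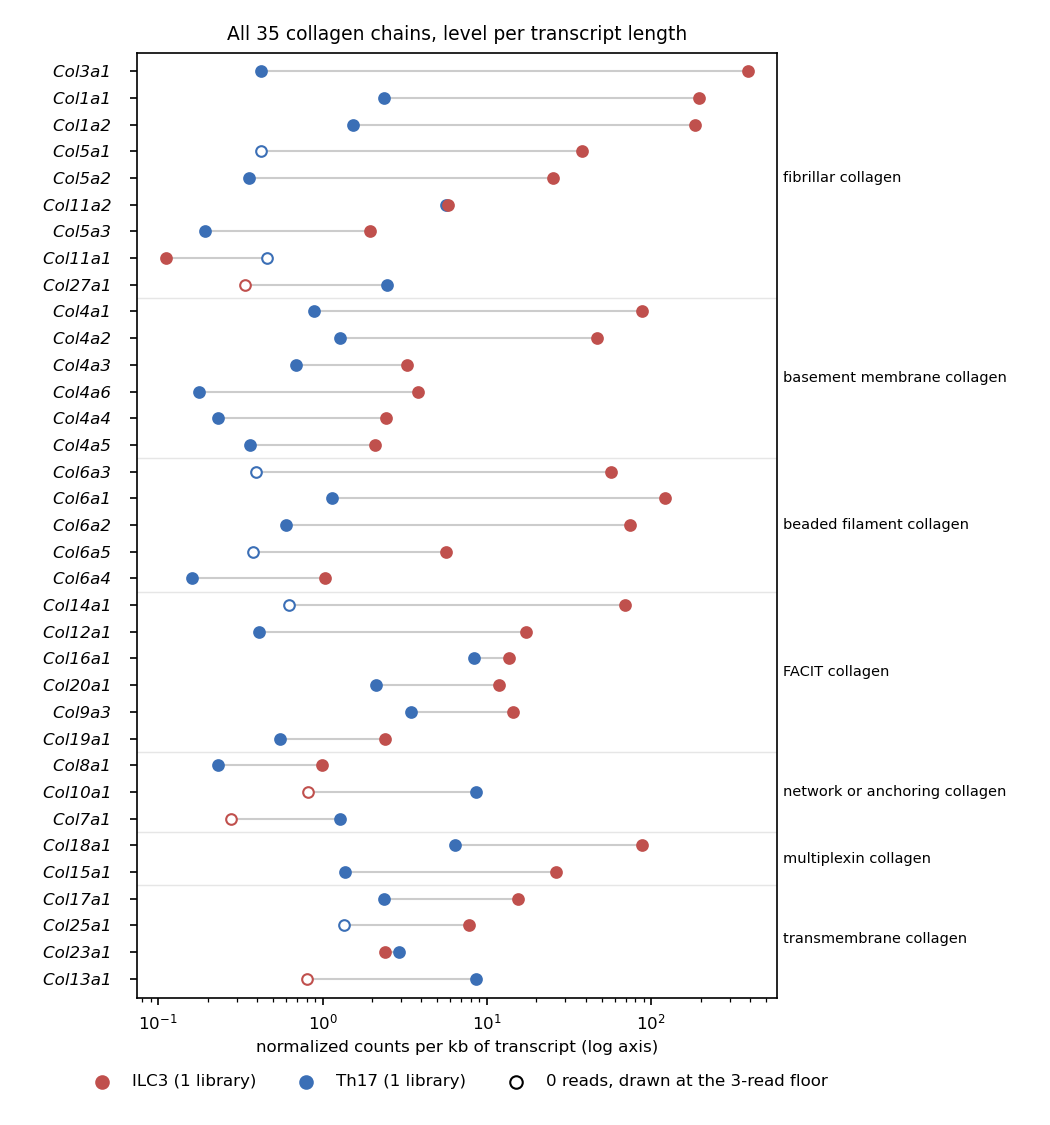
Normalized counts per kb of transcript (log axis) for all 35 collagen chains, with ILC3 in red and Th17 in blue; open circles mark 0 reads and stand at the floor of 3 reads, so they can lie above a gene with 1 read. Col3a1 leads in ILC3 at 388 per kb, whereas the chains listed at 0 in ILC3 reach at most 8.64 per kb in Th17.

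All 3 small leucine-rich proteoglycans were higher in ILC3, like the type I and type III chains they bind. Dcn, encoding decorin, was at 1401 normalized counts in ILC3, against 5.88 in Th17, a 238-fold difference (102 to 735). Bgn, encoding biglycan, had 851 in ILC3 and 8.23 in Th17 (103-fold, 50.01 to 258). Lum, encoding lumican, had 185 in ILC3 and 2.35 in Th17, a ratio of 78.8 (21.6 to 655). Dcn had the highest level per kb of all 56 genes in ILC3, at 797, and it was 10.5 times Lum per kb (9.13 to 12.2).

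Matrix glycoproteins were mixed. Sparc, a collagen-binding protein of remodelling tissue, reached 878 normalized counts in ILC3, against 45.9 in Th17 (19.1-fold, 13.9 to 27.1). Fn1, encoding fibronectin, had 725 in ILC3 and 30.6 in Th17 (23.7-fold, 16.1 to 36.5). Postn, encoding periostin, was at 78.2 in ILC3 and 2.35 in Th17 and did not reach the minimum. Tnc, encoding tenascin C of injured and remodelling tissue, was at 235 in ILC3 and 312 in Th17, a ratio of 0.753 (0.634 to 0.895). That direction turned when the libraries were centred on constitutive gene families, with a log2 ratio of 0.046 in place of -0.41.

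All 4 elastic fibre genes had more reads in ILC3, and 2 of them passed the size rule. Fbn1, the fibrillin of the microfibril scaffold, had 450 normalized counts in ILC3, against 19.99 in Th17 (22.5-fold, 13.9 to 38.9). Eln, encoding elastin, had 258 in ILC3 and 4.70 in Th17 (54.8-fold, 21.2 to 202). The cross-linking enzymes Lox and Loxl1 had 57.8 and 52.7 in ILC3, against 3.53 and 1.18 in Th17, below the minimum of 100.

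Lamc1 was the exception among the 56. It encodes the laminin γ1 chain, which joins an α and a β chain in most laminin trimers. It had 2154 normalized counts in ILC3, against 9445 in Th17, 4.38-fold higher in Th17 (4.19 to 4.59), the only large difference in that direction among the 56. With centring on constitutive families its log2 ratio was -1.68 in place of -2.13, short of the 4-fold limit. The α chains Lama4 and Lama2 and the linker nidogen, Nid1, did not follow it. Lama4, of vessel basement membranes, had 121 in ILC3 and 3.53 in Th17 (34.2-fold higher in ILC3, 11.5 to 168). Nid1 had 262 in ILC3 and 24.7 in Th17 (10.6-fold, 6.82 to 17.4), and Lama2 had 84.2 and 1.18. Per kb, Lamc1 was 14.1 times Lama4 in ILC3 (11.9 to 16.9) and 2124 times Lama4 in Th17 (726 to 10300.4).

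Other basement membrane genes, from a list of 11 with a row, also went both ways, with large differences in 3 on the ILC3 side and 1 on the Th17 side, against 5.14% and 3.92% of all genes. The β chains Lamb1 and Lamb2 had 199 and 176 normalized counts in ILC3, against 2.35 each in Th17, so the Th17 library held γ1 transcripts with almost none of these β chains. Lama5, an α chain of epithelial and vessel laminins, followed Lamc1, at 220.3 in ILC3 and 1096 in Th17 (4.98-fold higher in Th17, 4.33 to 5.73). With the centring on constitutive families it too was no longer a large difference. Hspg2, encoding perlecan, had 529 in ILC3 and 1.18 in Th17, which is 1 read (450-fold higher in ILC3, 80.4 to 17796). Npnt and Agrn, encoding nephronectin and agrin, had 1032 and 391 in ILC3, against 273 and 651 in Th17, and neither reached 4-fold.

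Contractile genes followed the collagens with an exception. Myh11, the myosin heavy chain of smooth muscle, had 984 normalized counts in ILC3, against 18.8 in Th17 (52.3-fold, 32.1 to 91.8). Acta2, the smooth muscle actin, had 847 in ILC3 and 14.1 in Th17 (60.03-fold, 34.2 to 116.6), although actin genes are similar enough that reads may be split between them. Des, encoding the muscle filament protein desmin, had 191 in ILC3 and 14.1 in Th17 (13.6-fold, 7.61 to 26.6). Tagln, encoding the actin-binding protein SM22, was at 254 in ILC3 and 102 in Th17, a ratio of 2.49 (1.95 to 3.19), below 4-fold. Tagln shares 108 exon bases with Pcsk7 on the opposite strand, and Pcsk7 had 775 in ILC3 and 1175 in Th17. Whether reads were assigned by strand is unknown here.

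Among 16 other smooth muscle genes, a large difference was found for 5 on the ILC3 side and none on the Th17 side. The shares of all genes were 5.14% and 3.92%. Mylk and Myl9, the myosin light chain kinase and a light chain, had 634 and 532 normalized counts in ILC3, against 7.06 and 4.70 in Th17. Cald1 and Pgm5, for caldesmon and an adhesion protein, had 219 and 142 in ILC3, against 4.70 and 7.06 in Th17. Csrp1 and Tpm1, both also expressed outside muscle, had 2064 and 676 in ILC3, against 2507 and 343 in Th17.

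The PDGF receptors differed from each other. Pdgfra, a surface receptor of fibroblasts, was at 107 normalized counts in ILC3, against 1.18 in Th17, which is 1 read (91.1-fold, 16.1 to 3627). Pdgfrb, of pericytes and smooth muscle, had 1359 in ILC3 and 399.8 in Th17, a ratio of 3.40 (3.02 to 3.83) that did not reach 4-fold except with the centring on constitutive families (log2 ratio 2.22, in place of 1.76). Per kb, Pdgfrb was 16.03 times Pdgfra in ILC3 (13.4 to 19.4), and in Th17 the ratio was 430 (76.6 to 17023), on 1 read of Pdgfra. Lamc1, Pdgfrb, Tnc and Tagln, singled out after their values were seen, were thus the 4 genes with over 100 normalized counts in Th17. The other 52 summed to 16174 in ILC3 and 520 in Th17.

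**Figure D3:**
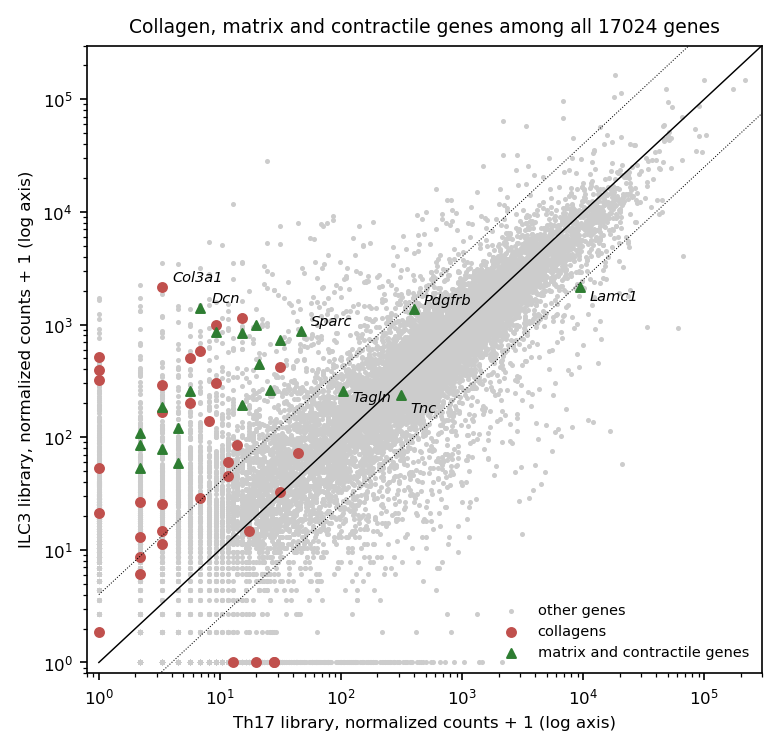
Each of the 17024 genes by its normalized count plus 1 in Th17 (x, log axis) and ILC3 (y, log axis), with collagens as red circles, the other stroma genes as green triangles, equality as a solid line and 4-fold as dotted lines. Most stroma genes lie at the upper left, above the 4-fold line, and Lamc1 lies on the other side at 2154 in ILC3 and 9445 in Th17.

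Of 26 other secreted matrix proteins, 22 had the higher value in ILC3 (45.5% of all genes). A large difference was found for 12 on the ILC3 side and 1 on the Th17 side, against 5.14% and 3.92% of all genes. The median log2 ratio was 4.75 over the 25 with enough reads, or 3.32 with genes at 0 set to their bound. Sparcl1, a relative of Sparc, had 566 normalized counts in ILC3, against 10.6 in Th17 (53.5-fold, 28.02 to 118). Dpt and Prelp, fibril-associated proteins, had 393 and 309.6 in ILC3, against 1.18 and 0 in Th17. The exception was Vcan, encoding the large proteoglycan versican, at 57.8 in ILC3 and 488 in Th17 (8.44-fold higher in Th17, 6.52 to 11.1). Ecm1 and Thbs1 had 1350.5 and 592 in ILC3, against 623 and 276 in Th17, without a large difference.

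The machinery that folds and secretes collagen was less divided. Of 19 processing genes, 4 were higher in ILC3 by a large difference and none higher in Th17, against 5.14% and 3.92% of all genes. Their median log2 ratio was 0.49. Serpinh1, the collagen chaperone, had 277 normalized counts in ILC3, against 3.53 in Th17 (78.6-fold, 26.7 to 383). Pcolce, which speeds propeptide removal, had 112 in ILC3 and 4.70 in Th17 (23.9-fold, 9.10 to 88.9). Loxl3 and Plod1, a cross-linking enzyme and a lysyl hydroxylase, had 307 and 736 in ILC3, against 16.5 and 168 in Th17. The prolyl hydroxylase subunits P4hb and P4ha1, used in many cells, had 5404 and 1491 in ILC3, against 7574 and 1570 in Th17.

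Genes that cut or protect matrix went both ways, with large differences in 5 of 17 on the ILC3 side and 2 on the Th17 side, against 5.14% and 3.92% of all genes. Adamts1, a protease that cuts proteoglycans, had 1578 normalized counts in ILC3, against 8.23 in Th17 (192-fold, 92.9 to 478). Timp3, a matrix-bound protease inhibitor, had 605 in ILC3 and 11.8 in Th17, and Mmp23 had 319 and 10.6. Mmp9, a gelatinase, stood at 131 in ILC3 and 2511 in Th17 (19.2-fold higher in Th17, 16.3 to 22.7). Mmp10, named after its values were seen, was at 0 in ILC3 and 129 in Th17, at least 50.7-fold higher in Th17 against the floor of 3 reads. The lower end of its counting interval was 40.5-fold, or 4.05-fold with ILC3 reads in groups of 10. Timp2 and Mmp14 had 2186 and 82.5 in ILC3, against 2823 and 153 in Th17.

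Several receptors through which cells bind matrix were expressed at high level in both libraries. Of 14 on the list, 3 had a large difference on the ILC3 side and 1 on the Th17 side, against 5.14% and 3.92% of all genes. Sdc4, a syndecan, had 15897 normalized counts in ILC3, against 2069.6 in Th17 (7.68-fold, 7.31 to 8.07). Itga5 and Itga1, integrin chains for fibronectin and collagen, had 2414 and 1447 in ILC3, against 167 and 126 in Th17. Lair1, an inhibitory collagen receptor of leukocytes, had 20.4 in ILC3 and 127 in Th17 (6.22-fold higher in Th17, 3.97 to 10.1). Cd44 and Itgb3 had 11987 and 7340.0 in ILC3, against 15133 and 3536 in Th17.

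**Figure D4:**
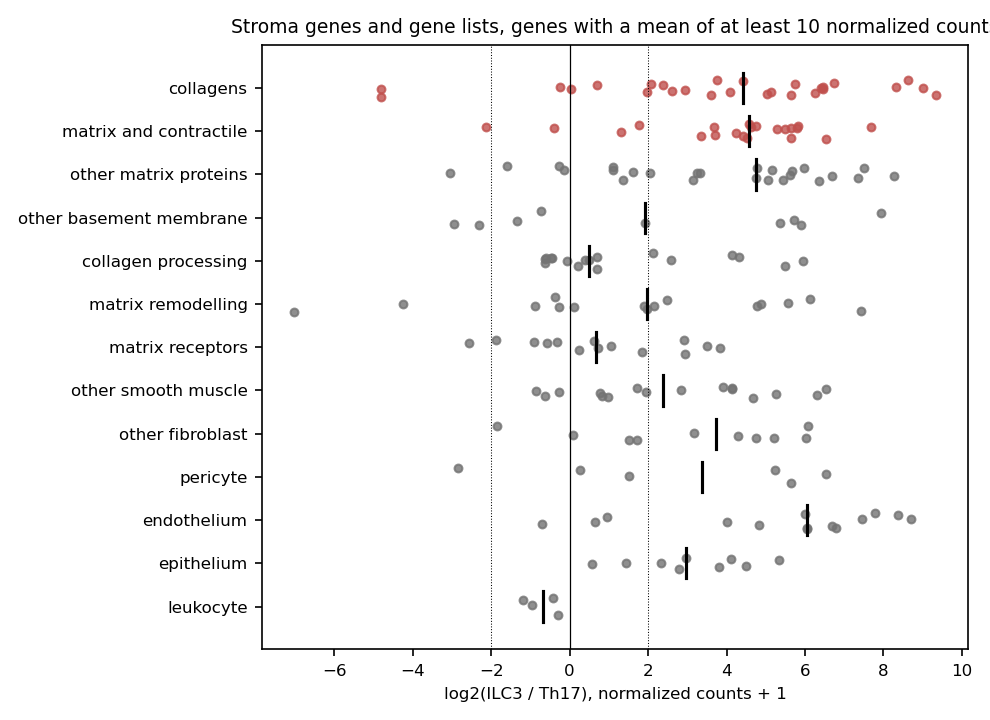
log2(ILC3/Th17) of normalized counts plus 1 for genes with a mean of at least 10 normalized counts, 1 point per gene, with the median as a bar and 4-fold as dotted lines; stroma genes are red and other lists grey. The collagens and the other stroma genes centre near 4.42 and 4.56, and the collagen processing and receptor lists near 0.49 and 0.67. The endothelium list centres higher, near 6.06, other matrix proteins near 4.75 and the leukocyte list near -0.69. With genes at 0 set to the floor of 3 reads, the medians are 3.75 for collagens, 5.45 for endothelium and 3.32 for other matrix proteins.

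Marker lists of cell types that a sort from the gut wall could hold differed in how many of their genes were higher in ILC3. Markers of the labelled cell types were compared first. Large differences were found on the Th17 side for 6 of 6 T cell genes (3.92% of all genes). Cd3e and Cd4 had 651 and 2044 normalized counts in ILC3, against 9897 and 24589 in Th17. Il23r and Kit had 9688 and 21092 in ILC3, against 5435 and 3963 in Th17. The Il23r ratio was 1.78 (1.72 to 1.84), below 4-fold. None of 4 pan-leukocyte genes had a large difference, against 5.14% of all genes higher in ILC3 and 3.92% in Th17. Ptprc had 12101 in ILC3 and 27686 in Th17. Of the fibroblast genes outside the 56 (16 with a row), only 4 reached 100 normalized counts in either library, so the rest could not be called large. Large differences were found for 2 on the ILC3 side and none on the Th17 side, against 5.14% and 3.92% of all genes. The 2 were Bmp4 (279 in ILC3 and 9.41 in Th17) and Cd34 (224 and 2.35). The list's median log2 ratio was 3.73 over the 10 with enough reads, or 3.09 with genes at 0 set to their bound. Gsn had 1890.5 in ILC3 and 658 in Th17. Thy1, which T cells also express, had 19600 in ILC3 and 18331 in Th17. The fibroblast list summed to 22284 in ILC3 and 19068 in Th17, most of it Thy1. Without regard to size, 4 genes on this list had the larger value in Th17 (54.5% of all genes). The opposite direction held for 12 (45.5% of all genes). Of 6 pericyte genes, 4 reached 100 normalized counts in either library. A large difference was found for 2 on the ILC3 side and 1 on the Th17 side, against 5.14% and 3.92% of all genes. Notch3 (419 in ILC3 and 3.53 in Th17) and Rgs5 (126 and 2.35) were higher in ILC3. Kcnj8 (32.3 in ILC3 and 239.9 in Th17) was higher in Th17. The pericyte list summed to 865 in ILC3 and 420 in Th17.

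Endothelial markers had 9 of 16 higher in ILC3 by a large difference and none in Th17, against 5.14% and 3.92% of all genes. They summed to 7373 in ILC3 and 2027 in Th17, of which Pecam1 was 3801 and 1965. In Th17, Cdh5, Kdr, Tek, Vwf, Emcn, Ramp2 and Cldn5 were at 0. Among epithelial markers, 5 of 9 were higher in ILC3 by a large difference and none in Th17, against the same shares of all genes. They summed to 1263 in ILC3 and 206 in Th17, and none was at 0 in either library. None of 6 enteric glia and neuron markers reached 100 normalized counts in either library, so none could be called large. With no limit on size, 5 were higher in ILC3 (45.5% of all genes) and 1 in Th17 (54.5% of all genes). These markers summed to 138 in ILC3 and 34.1 in Th17, with Gfap and Cdh19 at 0 in Th17 and Elavl4 at 0 in ILC3. The mesothelial markers Upk3b and Lrrn4 were at 0 in ILC3 and summed to 3.53 in Th17. The part of any of these cells in the levels of the 56 genes was not tested.

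The authors' deposited table gave an adjusted p under 0.05 for 12 of the 56 genes, all higher in ILC3, against 1.21% of all genes higher in ILC3 and 0.587% higher in Th17. The lowest was 2.60e-06 for Col3a1, followed by 1.84e-04 for Dcn and 0.00301 for Col1a2. It gave 0.662 for Lamc1 and 1 for Pdgfrb, Tnc and Tagln. With a single library on each side, these p-values of the authors' deposited table rest on no replicates.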

How the data were processed

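TopHat2 2.0.6, HTSeq 0.5.4p3, DESeq 1.12.0 and build mm8 are named in the submitters' processing notes, with no settings. Per the labels' protocols, TRIzol RNA (1 ug) entered the Illumina TruSeq preparation. The deposited signal columns are the authors' normalized counts of 1 library each, although headed as means; the deposited fold change is Th17 over ILC3, a ratio, and the deposited p-value and adjusted p-value are the authors' own. Names of 24 rows had turned into calendar dates and were left out.

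Each library's normalized counts were divided by its lowest non-zero value, 0.850 in ILC3 and 1.18 in Th17, to recover whole reads; 100% of values came out whole within 0.001 reads. Totals were 22509405 reads in ILC3 and 17555055 in Th17. The floor was 3 reads, 2.55 normalized counts in ILC3 and 3.53 in Th17. Groups came from the sample titles. With 1 library per group no test was made: folds are ratios of normalized counts without a pseudocount, log2 ratios use a pseudocount of 1, and intervals are exact conditional binomial (Clopper-Pearson, 95%). Intervals and floors hold counting error alone. Whether PCR copies of a molecule were counted as separate reads is unknown here, and the intervals make no allowance for it. A gene with a mean of at least 10 normalized counts was used for medians.

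Genes and the 15 lists (187 genes) were chosen with earlier results of these data known. All of the 56 genes could be named, and per list up to 4 genes with a large difference and 2 without. A gene of the ILC3 marker list, and that list's count, are not reported here. Levels per kb used the longest principal transcript of GENCODE M21 (GRCm38, another build than the authors', used for lengths, overlaps and exon sequences only), found for 56 of 56. Calculations were checked on simulated libraries. Alternatives were other scalings, pseudocounts, minimums, thresholds, gene subsets and grouped reads. Software was numpy 2.4.6, scipy 1.17.1, pandas 2.3.3 and matplotlib 3.10.9 under Python 3.11.15.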

Additional observations from a re-analysis of the deposited data

How the results depend on the processing

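The 27 genes higher in ILC3 and the 1 higher in Th17 kept their number under scaling to total reads, a recomputed median of ratios, upper-quartile scaling and pseudocounts of 0.1 and 10. Centring on 155 genes of constitutive families, added after seeing the data, shifted all genes by 0.45 (log2) and gave 28 and 0. A minimum of 300 gave 17 higher in ILC3, and no minimum gave 5 higher in Th17 (40 in ILC3). An 8-fold threshold gave 0 in Th17. Collagens alone gave 14 and 0, and the other genes 13 higher in ILC3. Leaving out Lamc1, Pdgfrb, Tnc and Tagln, also added after seeing the data, left 0 in Th17. That 0 was set by the choice of genes, since Lamc1 was the only 1 called on that side.

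The median log2 ratio of 4.54 became 4.64 with total reads, 4.60 with the upper quartile, 4.96 with the centring, 5.03 and 3.19 with pseudocounts of 0.1 and 10, and 4.16 and 5.57 with no minimum mean and a minimum mean of 100. The summed ratio of 1.87 became 2.02 with total reads, 1.96 with the upper quartile, 2.57 with the centring and 13.5 without Lamc1. The median over all genes, -0.017, turned to 0.094, 0.0496 and 0.45 under total reads, the upper quartile and the centring. Large differences over all genes numbered 875 higher in ILC3 and 668 in Th17, and 1185 and 469 with the centring. Counting intervals excluded equal levels for 44 genes higher in ILC3 and 6 in Th17, and with ILC3 reads grouped by 10 for 40 and 1. With genes at 0 set to the floor the median was 4.47. The cause of these changes was not tested. No paired analysis was possible because each group held 1 library. The floor of 3 reads for a gene listed at 0 was 2.55 in ILC3 and 3.53 in Th17. It held counting error alone and made no allowance for the few very low counts of the ILC3 library, where a 0 could hide a higher level.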
